A study of Mus musculus with 6 samples.

Results

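The RNA levels of 29 genes of cholesterol and fatty acid synthesis were compared between endothelial cells of the LN sorted by gp38 and CD31. The genes were chosen by name as enzymes, regulators and 1 carrier of the pathway: 7 enzymes from acetoacetyl-CoA to squalene, 10 from squalene to cholesterol, 5 regulators of the SREBP transcription factors, 6 enzymes of fatty acid synthesis and desaturation, and the sterol carrier Stard4. They are 29 of the 18193 genes with a probe set of their own on the array, and they held 67 of the 45037 probe sets tested. Where a gene had several probe sets, the 1 with the highest mean over the 6 arrays was used.

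The samples were LN stromal cells of 6-week-old C57BL/6 mice, with no treatment named in the labels, depleted of CD45+ cells and sorted from pooled skin-draining and mesenteric LN. 3 arrays carry the label double positive and 3 carry the label CD31+, each group with replicates 1 to 3, and the submitters describe the groups as paired. The cell type word of the labels goes against the gate word, since the double-positive arrays are labelled BEC and the CD31+ arrays LEC, whereas in the study LEC were the gp38+ CD31+ cells and BEC lacked gp38. The arrays were grouped by the gate word, and a reading by the cell type word would turn round the sign of every difference. Values are log2 RNA abundances after GCRMA, a background correction and normalization for GeneChip arrays, and their common floor lay at 2.39. Some probe sets also repeated a single exact value above this floor on several arrays, among them those of Srebf1, Dhcr7, Nsdhl and Lss. A difference always means double-positive minus CD31+ group means, on the log2 scale.

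Cells make cholesterol from acetyl-CoA through mevalonate, isoprenoid units and squalene, which is closed to a ring and trimmed to cholesterol. Fatty acids are built from the same acetyl-CoA by Fasn, then elongated and desaturated. The SREBP transcription factors drive both branches. They are held in the endoplasmic reticulum by Insig proteins, which bind their escort Scap when sterols are plentiful, and are carried to the Golgi and cut free when sterols are scarce. Endothelial cells can also take up cholesterol from lipoproteins, and lymphatic vessels carry dietary lipid and the lipoproteins that return cholesterol from tissues.

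The gate word was checked against defining markers. Pdpn, which encodes gp38, had log2 values of 8.32, 7.33 and 7.28 in the double-positive arrays and 3.69, 3.75 and 3.29 in the CD31+ arrays. Of 7 lymphatic markers, 6 lay without overlap higher in the double-positive arrays, and of 7 blood endothelial markers, 6 lay without overlap lower. The exception among the lymphatic markers was the probe set of the transcription factor Prox1 with the highest mean, with 6.73, 6.56 and 9.20 in the double-positive arrays and 7.32, 6.92 and 8.04 in the CD31+ arrays. A second Prox1 probe set lay apart without overlap, with 7.38, 6.76 and 7.37 in the double-positive arrays and 3.87, 2.59 and 3.91 in the CD31+ arrays (difference 3.72). Among the blood endothelial markers the exception was Glycam1, which was bright in both groups and overlapped. It had 12.79, 13.61 and 13.14 in the double-positive arrays and 12.11, 14.91 and 14.93 in the CD31+ arrays. The double-positive arrays were brighter as a whole. Between 13.8% and 14.7% of their probe sets reached a log2 value of 5, against 10.7% to 12.6% in the CD31+ arrays. Centring each array on the median of the 5764 probe sets whose mean was 5 or more lowered every difference by 0.68. Values with centred arrays are therefore given beside those as deposited, except for genes at or near the floor in both groups, where centring moves the floor itself.

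As deposited, the genes of the pathway that were well above the floor lay higher in the double-positive arrays. The same direction was seen for 83.8% of all genes with a mean of at least 5. Among the pathway genes 4, Hmgcs1, Idi1, Hsd17b7 and Scd2, passed the test with dim probe sets left out and the general brightness taken off. Of the 29 genes, 17 had all 3 double-positive arrays above all 3 CD31+ arrays, and 1, Elovl6, had all 3 below. Over all genes the groups lay apart in this way for 16.9% higher and 3.42% lower. Only 8 of the 29 genes had a mean of at least 5, and all 8 lay higher without overlap. Among genes of that brightness the share was 46.9% higher and 5.5% lower. The median difference of the 29 genes was 0.72, with a range of -1.24 to 2.68, while that of all genes was 0.00. With centred arrays and no filter the median of the 29 genes was 0.043, and their median level was 4.10, 4.15 and 4.00 in the double-positive arrays and 4.23, 3.83 and 4.28 in the CD31+ arrays, which overlapped. Of the 17 genes, 3 (Dhcr7, Scap and Stard4) had a difference below 0 with centred arrays. The median difference as deposited was 1.83 for the 8 genes with a mean of at least 5. Over the 3984 genes of that brightness it was 0.73. A difference above 1 as deposited was found for 13 of the 29 genes, compared with 10.4% of all genes and 35.0% of genes with a mean of at least 5. In bulk samples such as these, fewer cells of a type and less RNA per cell cannot be told apart.

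**Figure D1:**
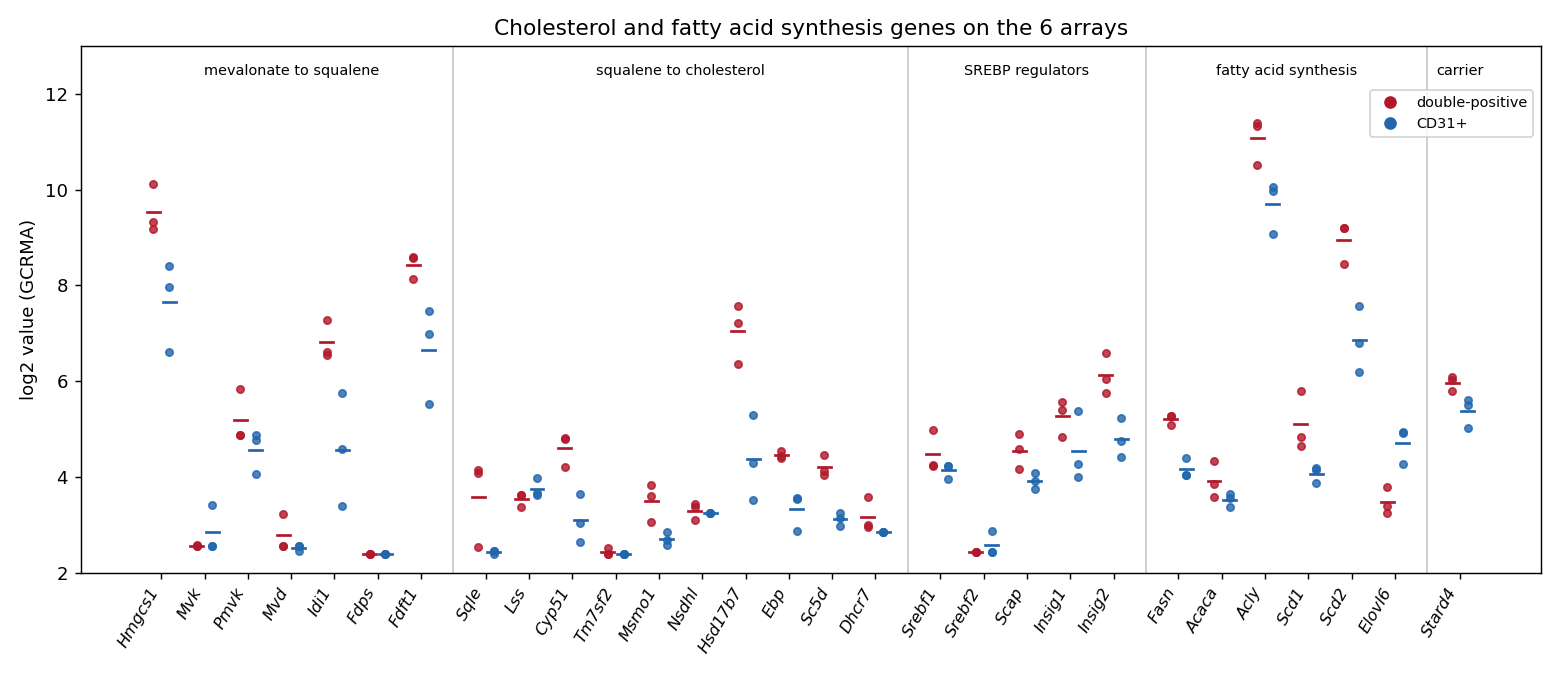
Log2 values (GCRMA) of the 29 genes on each of the 6 arrays, with double-positive arrays in red and CD31+ arrays in blue. Points are arrays and bars are group means (n = 3), and genes are ordered by their place in the pathway. The groups lay apart for 17 genes with the double-positive arrays above, and for Elovl6 with them below. Over all genes these shares were 16.9% and 3.42%.

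No gene of the 29 passed the test over all probe sets. With limma at 5% FDR and no filter, 0 were called higher and 0 lower. Over all genes this test called 0.879% higher and 0.176% lower. An unadjusted p under 0.05 was reached by 15 that were higher and 1 that was lower. The share of all genes at that threshold was not counted, so these numbers are not read as a result about the 29 genes. With a filter that kept a probe set only where 3 or more arrays had a log2 value of at least 5, 10 of the 29 genes were kept, and 8 were called higher and 0 lower. This filtered test called 33.2% of the 4207 genes it kept higher and 4.11% lower. With the filter and centred arrays, Hmgcs1, Idi1, Hsd17b7 and Scd2 were called higher and 0 lower, against 12.6% and 9.63% of genes kept. A gene that is bright in 1 group alone can pass this filter through that group. A filter on the mean of all 6 arrays also gave 4 calls, with no share over all genes counted. The number of calls was lower in some fits with 1 array left out. It was 0 without double-positive replicate 1 and 1 without CD31+ replicate 3. Without double-positive replicate 2 it was 2, and without double-positive replicate 3 also 2. No share over all genes was counted for these fits, so whether the drop was particular to these genes is not known.

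The replicate numbers paired the arrays, so the number was also fitted as a block. The block gave 0 higher and 0 lower over all probe sets. It gave 11 and 1 at an unadjusted p under 0.05, again with no share over all genes counted. Together with the filter it gave 8 higher and 0 lower, where it called 46.4% of genes kept higher and 4.99% lower. With the filter, centred arrays and the block, Fdft1 joined the other 4 genes, for 5 higher and 0 lower, against 18.3% and 14.7% of genes kept. Precision is limited by the number of arrays, and the p-values measure the spread between these samples only. With 3 arrays a group, the smallest 2-sided p of an exact permutation test is 0.1.

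**Figure D2:**
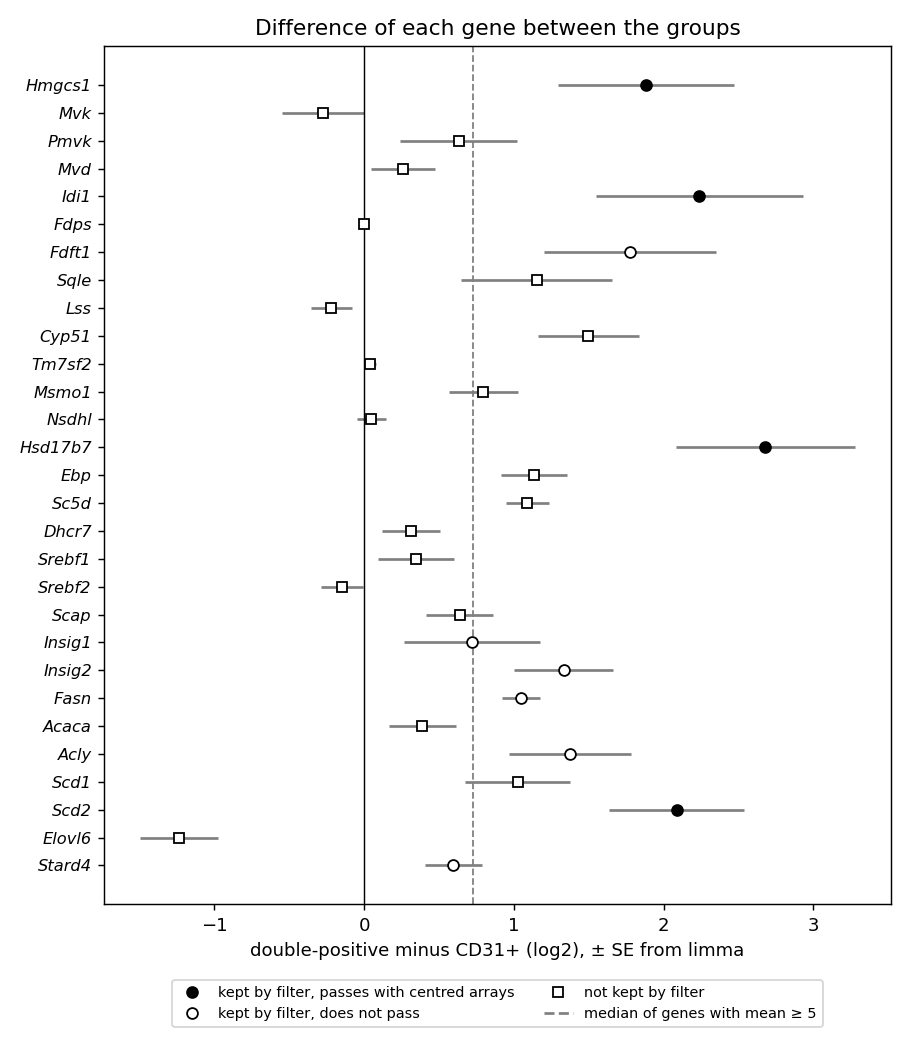
Difference of each of the 29 genes (double-positive minus CD31+, log2, values as deposited) with its standard error from limma, in pathway order. Filled circles passed with the filter and centred arrays, open circles were kept by the filter without passing there, squares were not kept, and the dashed line is the median of genes with a mean of at least 5 (0.73). Hsd17b7 lay farthest to the right at 2.68 and Elovl6 farthest to the left at -1.24.

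The enzymes that lead from acetoacetyl-CoA to squalene split into 3 genes that were well above the floor and higher in the double-positive arrays, and 4 that were dim or overlapped between the groups. Hmgcs1, which encodes the cytosolic synthase that makes HMG-CoA, had log2 values of 10.12, 9.33 and 9.17 in the double-positive arrays and 7.96, 8.41 and 6.61 in the CD31+ arrays. The groups did not overlap, and the narrowest gap lay between the arrays of the pair numbered 2. Its difference was 1.88 (standard error 0.588, limma adjusted p = 0.429), or 3.68-fold, and the adjusted p was 0.0180 with the filter. On filtered and centred arrays the difference was 1.20 (limma adjusted p = 0.0397). A pair of further Hmgcs1 probe sets differed by 1.25 and 0.90 as deposited. On filtered and centred arrays they differed by 0.57 and 0.22 and did not pass (limma adjusted p = 0.200 and 0.668). The remaining pair lay near the floor, at -0.06 and 0.00.

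Idi1, the isomerase that sets the balance of both isoprenoid building blocks, had 6.54, 7.29 and 6.61 in the double-positive arrays, against 4.57, 5.75 and 3.39 in the CD31+ arrays. All double-positive arrays lay above all CD31+ arrays, and the CD31+ arrays were spread more widely. The difference was 2.24 (standard error 0.691, limma adjusted p = 0.419), or 4.71-fold, and 1.56 with the filter and centred arrays (limma adjusted p = 0.0324). The second Idi1 probe set was tighter, with 5.56, 6.07 and 6.05 in the double-positive arrays and 3.97, 4.14 and 3.91 in the CD31+ arrays. It was the single probe set of the 67 to pass the unfiltered test, with a difference of 1.89 (limma adjusted p = 0.0460), and did not pass with the block (limma adjusted p = 0.211). After filtering and centring it differed by 1.21 (limma adjusted p = 0.0150), where it had passed the filter through the double-positive arrays alone.

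Fdft1, the squalene synthase that commits the pathway to sterols, had 8.58, 8.59 and 8.13 in the double-positive arrays and 7.47, 6.98 and 5.53 in the CD31+ arrays. The groups did not overlap, and CD31+ replicate 3 was lowest. The difference was 1.77 (standard error 0.576, limma adjusted p = 0.454, 0.0208 with the filter). With the filter and centred arrays it was 1.10 (limma adjusted p = 0.0585, and 0.00516 with the block). This probe set is of the kind whose probes can match other transcripts as well, and the other 3 Fdft1 probe sets lay near the floor with 0.04 as their largest difference. CD31+ replicate 3 was also the lowest of the 6 arrays for Hmgcs1, Idi1, Ebp, Scd2 and Acly, and it was the dimmest array as a whole.

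Of the other 4 enzymes of this stretch, Pmvk was above the floor and the rest lay at or near it on most arrays. Pmvk, the phosphomevalonate kinase, overlapped, with 4.88, 5.84 and 4.87 in the double-positive arrays and 4.76, 4.87 and 4.06 in the CD31+ arrays (difference 0.63, limma adjusted p = 0.659, and -0.045 with centred arrays). Mvk, the mevalonate kinase, differed by -0.28, from 1 CD31+ array at 3.42 where the other 5 arrays lay at 2.56 to 2.58. Mvd, the decarboxylase of the next step, differed by 0.26, from 1 double-positive array at 3.22. Fdps, the farnesyl diphosphate synthase, lay at the floor on all 6 arrays in both of its probe sets, where no difference can be seen.

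The stretch of DNA before the start of these genes is shown because SREBP acts through short motifs there, together with NF-Y at CCAAT boxes and Sp1 at GC boxes. RefSeq promoter windows (GRCm38.p6, 250 bases before to 50 after the start) were at hand for 23 of the 29 genes, and not for Fdps, Fdft1, Sqle, Scd1, Scd2 and Stard4. The sterol regulatory element TCACNCCAC, searched on both strands, was found in 1 of the 23, Hmgcs1, or 4.35%, against 1.44% of all 27025 genes with a window. A CCAAT box on either strand was found in 20 of the 23 (87.0%), against 41.1% of all genes, and 11 of the 23 had several. The GC box GGGCGG was found in 19 of the 23 (82.6%), against 38.2% of all genes. A gene with several windows was counted where any of them held the motif. The 250 bases before the start are printed for 3 of the genes called with centred arrays (Hmgcs1, Idi1 and Hsd17b7). Also printed are those of Mvk, which held the most CCAAT boxes and was dim in both groups, and Elovl6, which lay lower and held none. Acaca and Scap held no CCAAT box either, and differed by 0.39 and 0.64 as deposited. Thrsp, a related gene that lay lower, held 2. Capitals mark CCAAT or its reverse complement ATTGG and, in Hmgcs1, the sterol regulatory element, which begins 137 bases before the start and overlaps no CCAAT box.
Hmgcs1: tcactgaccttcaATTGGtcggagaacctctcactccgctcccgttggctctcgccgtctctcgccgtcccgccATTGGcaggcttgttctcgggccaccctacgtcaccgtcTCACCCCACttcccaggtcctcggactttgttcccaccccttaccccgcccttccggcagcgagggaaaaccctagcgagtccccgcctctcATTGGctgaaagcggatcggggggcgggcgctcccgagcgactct
Idi1: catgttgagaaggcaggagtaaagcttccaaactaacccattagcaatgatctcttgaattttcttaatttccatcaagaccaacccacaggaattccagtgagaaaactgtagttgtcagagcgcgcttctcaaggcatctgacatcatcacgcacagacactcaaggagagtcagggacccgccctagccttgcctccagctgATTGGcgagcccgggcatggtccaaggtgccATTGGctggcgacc
Hsd17b7: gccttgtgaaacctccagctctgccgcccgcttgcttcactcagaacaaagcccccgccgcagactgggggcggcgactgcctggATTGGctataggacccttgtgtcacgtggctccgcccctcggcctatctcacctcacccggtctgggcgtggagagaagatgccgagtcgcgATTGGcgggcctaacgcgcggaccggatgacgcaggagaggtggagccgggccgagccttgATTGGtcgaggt
Mvk: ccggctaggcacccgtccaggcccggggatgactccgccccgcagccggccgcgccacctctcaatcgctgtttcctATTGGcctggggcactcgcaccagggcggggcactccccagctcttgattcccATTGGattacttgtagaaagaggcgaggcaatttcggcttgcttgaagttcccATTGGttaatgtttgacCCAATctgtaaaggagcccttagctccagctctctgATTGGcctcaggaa
Elovl6: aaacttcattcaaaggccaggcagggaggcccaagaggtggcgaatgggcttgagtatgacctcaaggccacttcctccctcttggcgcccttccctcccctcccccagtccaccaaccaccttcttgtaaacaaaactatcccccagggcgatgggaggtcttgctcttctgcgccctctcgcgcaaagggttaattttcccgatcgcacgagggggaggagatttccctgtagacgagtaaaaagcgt
They are written 5′ to 3′ on the strand of the gene, and lie at chr13:119690101-119690350 on the plus strand for Hmgcs1, chr13:8885356-8885605 on the plus strand for Idi1, chr1:169969206-169969455 on the minus strand for Hsd17b7, chr5:114444019-114444268 on the plus strand for Mvk and chr3:129532136-129532385 on the plus strand for Elovl6. The printed bases held 3 CCAAT boxes for Hmgcs1, 2 for Idi1, 3 for Hsd17b7, 5 for Mvk and 0 for Elovl6. A motif match is a description of the letters and not a measured site.

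Of the 10 enzymes that turn squalene into cholesterol, 7 lay higher in the double-positive arrays without overlap, against 16.9% of all genes. However, 9 of the 10 did not reach a log2 value of 5 on any array. Hsd17b7, which reduces a keto group left by removal of the methyl groups of lanosterol, was the exception. It had 7.56, 6.37 and 7.21 in the double-positive arrays, against 5.29, 3.52 and 4.30 in the CD31+ arrays. The groups did not overlap, and replicate 2 was lowest in both. The difference was 2.68 (standard error 0.597, limma adjusted p = 0.232), or 6.40-fold, and the adjusted p was 0.00401 with the filter. On filtered and centred arrays it was 2.00 (limma adjusted p = 0.0104). This too is a probe set whose probes can match other transcripts, and the other 3 Hsd17b7 probe sets lay at or near the floor on all arrays.

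Sqle, the squalene epoxidase and a control point of the pathway, had 4.08, 2.54 and 4.15 in the double-positive arrays and 2.40, 2.45 and 2.45 in the CD31+ arrays. Double-positive replicates 1 and 3 stood above the floor, whereas double-positive replicate 2 lay beside the CD31+ arrays. The difference was 1.15 (standard error 0.503, limma adjusted p = 0.659). Leaving out double-positive replicate 2 gave 1.68 (limma adjusted p = 0.0118). That fit removed the array that disagreed with the other double-positive arrays, so its p-value is not read as a result. With centred arrays, no filter and no array left out, the difference was 0.47.

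The other members of this stretch that lay apart were dim. Cyp51, the lanosterol demethylase, had 4.80, 4.81 and 4.21 in the double-positive arrays and 3.04, 3.64 and 2.65 in the CD31+ arrays. Ebp, the sterol isomerase, had 4.55, 4.44 and 4.39 in the double-positive arrays, against 3.57, 3.54 and 2.88 in the CD31+ arrays. For Sc5d, the desaturase that acts after Ebp, the double-positive arrays had 4.12, 4.47 and 4.05 and the CD31+ arrays 3.14, 3.24 and 2.98. All 3 genes lay higher in every pair, with differences of 1.50 for Cyp51 (limma adjusted p = 0.234), 1.13 for Ebp (adjusted p = 0.179) and 1.09 for Sc5d (adjusted p = 0.0858). Msmo1, which encodes the sterol methyl oxidase, had 3.83, 3.07 and 3.61 in the double-positive arrays and 2.85, 2.67 and 2.59 in the CD31+ arrays, a difference of 0.80 (limma adjusted p = 0.373). Dhcr7, which encodes a reductase of the last steps, differed by 0.31 without overlap, but the CD31+ arrays all had the same value of 2.86. Further probe sets differed less, by 0.26 and 0.25 for Cyp51, by 0.55 and 0.00 for Sc5d and by -0.01 for Msmo1. None of these 5 genes was kept by the filter. With centred arrays and no filter the differences were 0.82 for Cyp51, 0.45 for Ebp, 0.41 for Sc5d, 0.12 for Msmo1 and -0.37 for Dhcr7. The direction of Dhcr7 thus depended on the scaling, where centring moved the value that its CD31+ arrays shared.

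Lss, Nsdhl and Tm7sf2 showed no such pattern. Lss, the lanosterol synthase that closes the ring, had 3.62, 3.37 and 3.62 in the double-positive arrays and 3.98, 3.66 and 3.62 in the CD31+ arrays, a difference of -0.22 (limma adjusted p = 0.659), or -0.90 with centred arrays, and a dimmer Lss probe set differed by 0.25. Nsdhl, a dehydrogenase that acts beside Msmo1, had 3.25 on every CD31+ array and differed by 0.05, or -0.63 with centred arrays. The sterol reductase Tm7sf2, near the floor, differed by 0.04.

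The regulators of SREBP were mostly dim. Srebf1, which encodes the SREBP form that favours fatty acid genes, had 4.99, 4.23 and 4.24 in the double-positive arrays and 4.23, 4.23 and 3.96 in the CD31+ arrays. Double-positive replicate 2 and CD31+ replicates 1 and 2 shared the same value of 4.23, and double-positive replicate 1 alone stood well above it. The difference was 0.35 (standard error 0.255, limma adjusted p = 0.659), against -0.33 with centred arrays, where that shared value moves with each array. Srebf2, which encodes the form that favours cholesterol genes, lay near the floor, at 2.43 on all arrays but CD31+ replicate 2 at 2.88 (difference -0.15). Scap, the escort of SREBP, had 4.59, 4.17 and 4.90 in the double-positive arrays and 4.08, 3.91 and 3.74 in the CD31+ arrays, without overlap. Its difference was 0.64 (standard error 0.222, limma adjusted p = 0.509), and -0.04 with centred arrays.

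The groups lay apart for Insig2 and overlapped for Insig1. Insig2, which like Insig1 holds back Scap, had 6.60, 5.76 and 6.05 in the double-positive arrays and 5.24, 4.42 and 4.75 in the CD31+ arrays. In both groups replicate 1 was highest and replicate 2 lowest, and the gap was alike in all 3 pairs, at 1.36, 1.34 and 1.30. The difference was 1.33 (standard error 0.328, limma adjusted p = 0.279, 0.0182 with the filter), and the other Insig2 probe sets differed by 1.54 and 1.45. After filtering and centring it was 0.65 (limma adjusted p = 0.176). Insig1, itself a target of SREBP, had 5.41, 5.57 and 4.84 in the double-positive arrays and 4.28, 5.37 and 3.99 in the CD31+ arrays. These overlapped through CD31+ replicate 2, and the difference was 0.72 (standard error 0.455, limma adjusted p = 0.659, 0.179 with the filter), which came to 0.04 with the filter and centred arrays. The difference between the Insig genes was not tested.

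Of the 6 enzymes of fatty acid synthesis and desaturation, 4 lay higher in the double-positive arrays without overlap and Elovl6 lay lower. Over all genes the shares were 16.9% higher and 3.42% lower. Scd2, a stearoyl-CoA desaturase that makes monounsaturated fatty acids, had 9.19, 9.20 and 8.45 in the double-positive arrays and 7.58, 6.80 and 6.20 in the CD31+ arrays. The groups were well apart, and replicate 3 was lowest in both. The difference was 2.09 (standard error 0.451, limma adjusted p = 0.221), or 4.25-fold, and the adjusted p was 0.00544 with the filter. On filtered and centred arrays it was 1.41 (limma adjusted p = 0.0116), while the other 2 Scd2 probe sets lay near the floor. Its paralog Scd1 had 5.79, 4.65 and 4.84 in the double-positive arrays and 4.15, 3.88 and 4.18 in the CD31+ arrays. These did not overlap, double-positive replicate 1 stood above the rest, and the difference was 1.03 (standard error 0.351, limma adjusted p = 0.496), or 0.35 with centred arrays.

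Fasn, the fatty acid synthase, had 5.26, 5.27 and 5.08 in the double-positive arrays and 4.05, 4.03 and 4.39 in the CD31+ arrays. Both groups were tight and did not overlap, and the difference of 1.05 had the smallest adjusted p of the 29 genes in the unfiltered test (standard error 0.128, limma adjusted p = 0.0723, 0.0183 with the filter). After filtering and centring it was 0.37 (limma adjusted p = 0.421). Fasn passed the filter through the double-positive arrays alone. Acly, which makes cytosolic acetyl-CoA from citrate, had 11.33, 10.50 and 11.40 in the double-positive arrays and 10.05, 9.98 and 9.08 in the CD31+ arrays. The narrowest gap was again in the pair numbered 2, at 0.53, and the difference was 1.37 (standard error 0.406, limma adjusted p = 0.389, 0.0236 with the filter). On filtered and centred arrays it was 0.70 (limma adjusted p = 0.142). The Acly probe set is also of the kind that can match other transcripts, another probe set of the gene differed by 1.02, and the other 4 lay near the floor. Acaca, the acetyl-CoA carboxylase that supplies malonyl-CoA to Fasn, had 3.85, 4.33 and 3.57 in the double-positive arrays and 3.56, 3.65 and 3.37 in the CD31+ arrays. These overlapped, and the difference was 0.39 (standard error 0.226, limma adjusted p = 0.659), against -0.29 with centred arrays.

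Elovl6, which elongates palmitate to stearate, the substrate of the Scd enzymes, had 3.39, 3.24 and 3.79 in the double-positive arrays and 4.27, 4.94 and 4.91 in the CD31+ arrays. It was the single gene of the 29 that lay lower without overlap, and it was lower in all 3 pairs. The difference was -1.24 (standard error 0.260, limma adjusted p = 0.210), or -1.91 with centred arrays, and no array reached a log2 value of 5. A pair of dimmer Elovl6 probe sets differed by -0.16 and -0.03. Stard4, a carrier that moves cholesterol between membranes, had 6.08, 6.03 and 5.79 in the double-positive arrays and 5.49, 5.03 and 5.60 in the CD31+ arrays. The groups lay apart without overlap by a narrow margin, with a difference of 0.59 (standard error 0.189, limma adjusted p = 0.441, 0.126 with the filter). After filtering and centring it was -0.08, so its direction depended on the scaling.

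**Figure D3:**
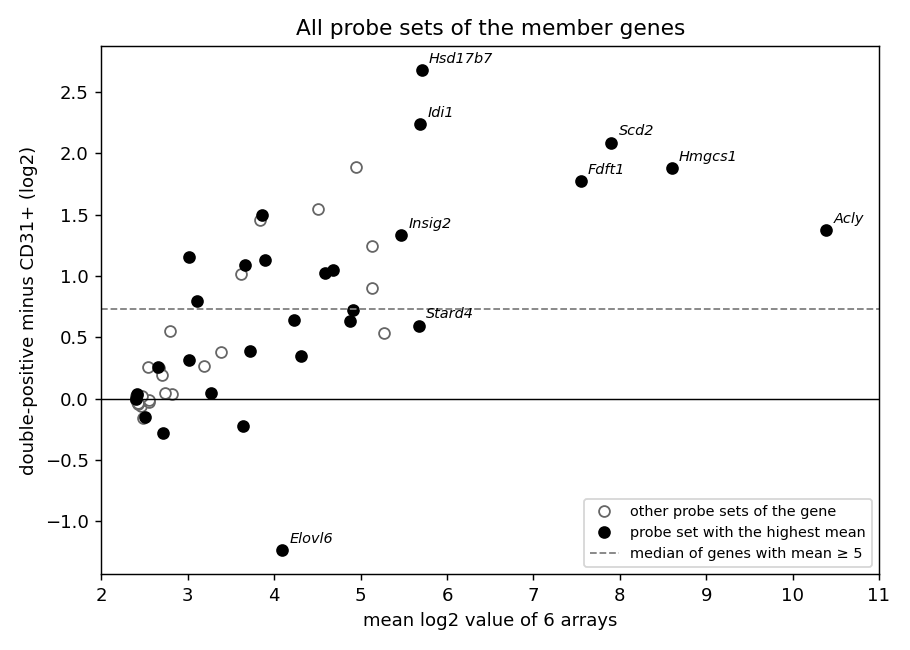
Difference (double-positive minus CD31+, log2) of every probe set of the 29 genes against its mean log2 value over the 6 arrays. Filled points are the brightest probe set by mean of each gene, open points the other probe sets, and the dashed line is the median of genes with a mean of at least 5 (0.73). Probe sets near the floor of 2.39 lay near 0, Hsd17b7 lay highest at 2.68 and Elovl6 was the single gene below -1.

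The 46 other genes listed for the pathway included 37 with a probe set of their own, which were read in the same fits. Without a filter 1 was called higher, Lpin1, and 1 lower, Thrsp. The filter gave 9 higher and 1 lower. When the arrays were also centred, 3 were higher (Pgrmc1, Hacd3 and Lpin1) and 1 was lower (Thrsp). Over all genes kept, the filter called 33.2% higher, and 12.6% when the arrays were also centred. The median difference of the 37 genes was 0.48, and the filter kept 16 of them. By list, it kept 2 of 5 other sterol synthesis genes and called 1 higher, kept 5 of 6 genes of SREBP processing and called 2 higher, kept 3 of 6 genes of sterol storage and transport and called 3 higher, and kept 6 of 20 other fatty acid genes and called 3 higher.

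Thrsp had the largest difference of all genes of both lists. It encodes Spot 14, a small protein that is bound up with fatty acid synthesis in liver, fat and mammary gland. It lay near the floor in the double-positive arrays, at 2.40, 2.55 and 2.42, against 6.63, 7.47 and 6.63 in the CD31+ arrays. The difference was -4.45 (standard error 0.273, limma adjusted p = 0.0240), and it did not pass with the block over all probe sets (limma adjusted p = 0.171). On filtered and centred arrays it was -5.13 (limma adjusted p = 1.37e-06). Thrsp passed the filter through the CD31+ arrays alone, and with the double-positive arrays near the floor, centring widens the difference by construction. Without a filter, it also missed 5% FDR when any array other than CD31+ replicate 2 was left out, with differences of -4.59 to -4.42 and limma adjusted p-values of 0.0677 to 0.117, and was called without CD31+ replicate 2 at -4.17. The other Thrsp probe sets lay near the floor on all arrays and differed by -0.08 and -0.06.

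Lpin1, which encodes the phosphatidate phosphatase lipin 1, had 6.40, 6.35 and 6.21 in the double-positive arrays and 4.47, 4.32 and 4.24 in the CD31+ arrays. The arrays of each group agreed closely, and the difference was 1.98 (standard error 0.0870, limma adjusted p = 0.0168). It did not pass with the block (limma adjusted p = 0.0891), and with the filter, which it passed through the double-positive arrays alone, and centred arrays it was 1.30 (limma adjusted p = 0.00450). Without a filter, leaving out double-positive replicate 1, double-positive replicate 2, CD31+ replicate 2 or CD31+ replicate 3 gave limma adjusted p-values of 0.0501 to 0.0660 for Lpin1, with differences of 1.92 to 1.96. Pgrmc1, a heme-binding membrane protein that binds Cyp51, had 10.17, 10.67 and 10.23 in the double-positive arrays and 8.57, 8.34 and 7.29 in the CD31+ arrays. Without overlap, it differed by 2.29 (limma adjusted p = 0.154), and by 1.61 with the filter and centred arrays (limma adjusted p = 0.00398). Hacd3, a dehydratase of very long-chain fatty acid elongation, had 11.17, 9.81 and 10.81 in the double-positive arrays and 9.15, 8.47 and 8.50 in the CD31+ arrays. It differed by 1.89 (limma adjusted p = 0.255), and by 1.21 with the filter and centred arrays (limma adjusted p = 0.0362).

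**Figure D4:**
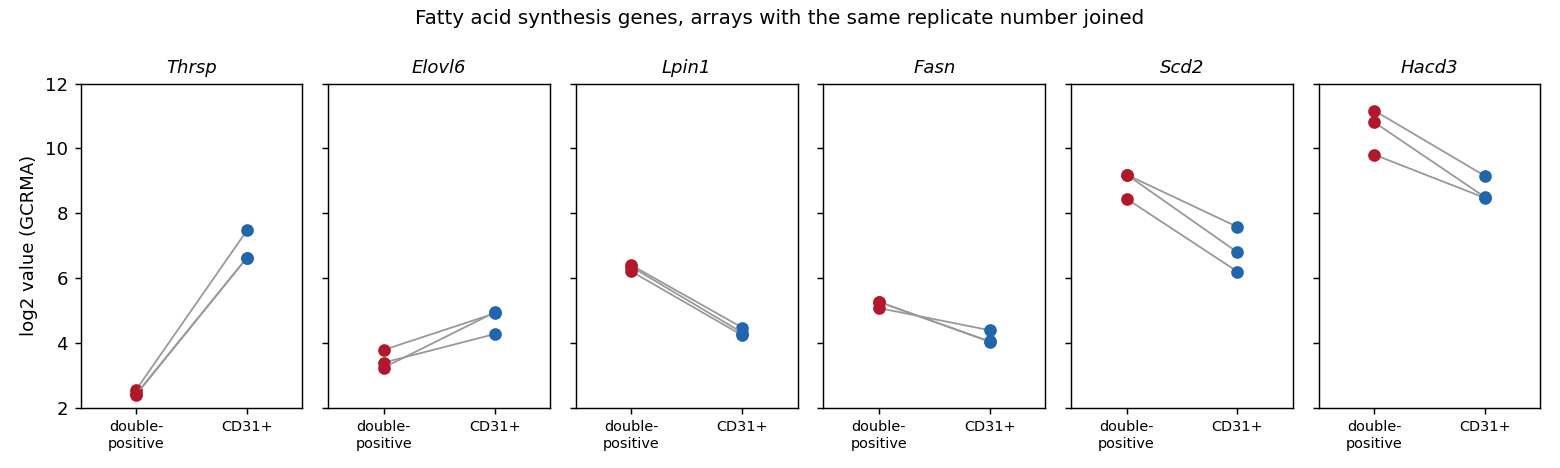
Log2 values (GCRMA) of 6 genes of fatty acid metabolism, with double-positive arrays in red on the left and CD31+ arrays in blue on the right of each panel, and lines joining arrays with the same replicate number. Thrsp and Elovl6 were lower in the double-positive arrays in all 3 pairs, with mean differences of -4.45 and -1.24, and Lpin1, Fasn, Scd2 and Hacd3 were higher in all 3.

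Markers of other cells that could bring lipid-synthesizing transcripts were read in the same way. The 4 measured adipocyte markers, Adipoq, Cidec, Lep and Retn, lay at or near the floor on all 6 arrays, with summed log2 values of 9.67 to 9.72 in the double-positive arrays and 9.68 to 9.74 in the CD31+ arrays. The 5 hematopoietic markers stayed below a log2 value of 5, with Ptprc at up to 4.37 in the CD31+ arrays and Cd79a at the floor. Of 7 reticular and pericyte markers, 5 lay lower in the double-positive arrays without overlap, with summed log2 values of 27.2 to 30.4 in the double-positive arrays and 34.5 to 44.1 in the CD31+ arrays. Col3a1, for instance, had 5.12, 3.38 and 3.74 in the double-positive arrays and 7.94, 7.44 and 6.29 in the CD31+ arrays. Of the other markers in this list, Rgs5, the brightest of the 7, overlapped with a difference of 0.33, and Col1a1 lay near the floor, at up to 2.86. The 5 markers that lay lower moved in the direction of Thrsp and Elovl6, and their part in those differences was not tested. Of 4 proliferation markers, Top2a lay higher without overlap, with 5.74, 4.83 and 5.04 in the double-positive arrays and 4.08, 3.02 and 4.33 in the CD31+ arrays, while Mki67 differed by 0.13. The part of proliferation in the differences of the sterol genes was not tested.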

How the data were processed

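From 20 ng of RNA, amplified in 2 rounds, the authors labelled cRNA, hybridized it to mouse GeneChip arrays and normalized the arrays with GCRMA, so the deposited values are log2 abundances, 1 per probe set and array. Versions of GCRMA and limma on their side are not given in the sources used here. Of 45101 probe sets 64 controls were left out. Of the others, 34945 map to 1 gene in the platform table, 932 to several and 9160 to none, and 34741 matched RefSeq for current symbols. On all 6 arrays 37.4% lay within 0.1 of the floor.

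The groups were compared by limma (version 3.58.1, R version 4.3.3; lmFit with eBayes, Benjamini-Hochberg over 45037 probe sets, 5% FDR), with no filter and no block. There were 4 residual degrees of freedom. The prior ones came to 0.356 without a filter and 4.92 for the 6088 probe sets that passed it. The fit was tested on simulated data. To check the pairing by replicate number, deviations from the group means were correlated over 5764 probe sets. Those of same-numbered arrays gave 0.341, 0.475 and 0.418, and those of others -0.405 to 0.0566, and the submitters call the samples paired. Alternatives were the block, each array left out, the filter, centred arrays, eBayes with trend and robust, 1% FDR and other choices of probe set. Values without overlap were counted per gene.

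The 29 genes and the other lists were chosen with earlier results of these data known. Values in full are given by rule: genes called without a filter or with the filter and centred arrays, the 5 largest differences in each direction without overlap, the SREBP regulators, Sqle, Fasn, Acaca, Scd1 and Scd2, and related genes called in either fit. Other genes named with array values were chosen after their values were seen. Promoter windows came from a RefSeq table of 32851 windows. Listed genes without a probe set of their own were not analysed here, nor were the qPCR and cytometry data of the study. Plots used Python 3.11.15 and matplotlib 3.10.9.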

Additional observations from a re-analysis of the deposited data

How the results depend on the processing

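Of the 29 genes, 0 were called higher over all probe sets with the replicate block, with trend and robust eBayes and at 1% FDR. Leaving out 1 array gave 0 to 1, the 1 being Sqle without double-positive replicate 2. The filter gave 8 higher, the filter with the replicate block 8, centred arrays without a filter 8, the filter with centred arrays 4, the same with the replicate block 5, and a filter on the mean with centred arrays 4. Leaving out 1 array from the filter with centred arrays gave 0 to 4. Counting a gene by any probe set gave 1 (Idi1), and by the mean of its probe sets 2 (Fasn and Sc5d). Centred arrays without a filter called 7 lower, since centring moves probe sets at the floor by construction, and the other alternatives called 0 lower. Shares over all genes were not counted for centred arrays without a filter, the filter on the mean or left-out arrays. Nor were they counted for any probe set of a gene or the mean of its probe sets. The counts under those settings are therefore not read as a result about the 29 genes. The median difference of 0.72 was 1.57 under the filter, 1.57 under the filter with replicate block, 0.043 with centred arrays, 0.90 with both filter and centred arrays, 0.45 by the mean of probe sets and 1.83 for genes with a mean of at least 5, and 0.65 to 0.83 with 1 array left out. With centred arrays Srebf1 was -0.33, Scap -0.040 and Acaca -0.29. Of the related genes, 0 were higher and 0 lower with the replicate block, 9 were higher and 1 lower under the filter, and 3 higher and 1 lower once the arrays were also centred. The looser motif TCACNNNAC was found in 6 of the 23 genes with a promoter window (26.1%), against 12.7% of all genes with one. The filter on the mean, the fits that combine the filter with centred arrays and the block or a left-out array, and the median over genes with a mean of at least 5 were chosen after seeing the data. Signal near the floor limits 17 of the 29 genes, which reached a log2 value of 5 on no array.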

Other observations

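Genes that store, export and sense sterols were measured beside the synthesis genes. Abca1, which exports cholesterol to lipoproteins and is a target of the sterol sensor LXR, had 9.53, 9.55 and 9.74 in the double-positive arrays and 8.75, 8.89 and 8.35 in the CD31+ arrays. The groups did not overlap, with a difference of 0.94 (limma adjusted p = 0.153, 0.0299 with the filter) that came to 0.27 once the arrays were also centred. Mylip, which encodes the LXR target Idol, had 8.62, 8.36 and 9.09 in the double-positive arrays and 7.11, 7.94 and 6.83 in the CD31+ arrays, a difference of 1.39 (limma adjusted p = 0.334, 0.0195 with the filter) that came to 0.72 with the filter and centred arrays. Abcg1, another exporter and LXR target, pointed the other way, with 3.87, 3.75 and 4.46 in the double-positive arrays and 5.48, 4.43 and 4.17 in the CD31+ arrays, which overlapped (difference -0.67, limma adjusted p = 0.659). Its second probe set also differed by -0.67. Npc2, a lysosomal cholesterol carrier, differed by 1.14 (limma adjusted p = 0.564, 0.0487 with the filter), and its membrane partner Npc1 lay near the floor. None of the 6 genes of this list was called with the filter and centred arrays.

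Genes that extend fatty acids beyond palmitate did not share a direction. Elovl5, an elongase of polyunsaturated fatty acids, had 11.16, 11.09 and 11.42 in the double-positive arrays and 10.16, 10.31 and 9.61 in the CD31+ arrays, a difference of 1.19 (limma adjusted p = 0.170, 0.0164 with the filter), or 0.51 once the arrays were also centred. Elovl7 differed by 1.38 and Hsd17b12, a reductase of the elongation cycle, by 1.30, neither passing without a filter nor kept by it, while Elovl6 differed by -1.24. Mid1ip1, a paralog of Thrsp, had 3.02, 3.34 and 2.91 in the double-positive arrays and 3.17, 4.00 and 3.69 in the CD31+ arrays, which overlapped, a difference of -0.53 (limma adjusted p = 0.659).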
